A study of Homo sapiens with 3 samples.

Results

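The loci examined here are 5 genes of glucose uptake and glycolysis, SLC2A1, HK2, PFKFB3, ENO1 and LDHA, in the human clear cell renal carcinoma line 786-O. A locus comprised every deposited peak whose summit lay within 50 kb of the start position fixed for the gene, which gave 41 TEAD regions of 35241 in the whole list and 51 H3K27ac regions of 52667. A deposited peak is called a region, and positions are hg19, counted from 1. The series holds 3 libraries, chromatin precipitated for TEAD, chromatin precipitated for H3K27ac and input chromatin. All came from 786-O cells grown in RPMI medium with serum and fixed in 1% formaldehyde for 10 min. No input file was used here, and the labels name no genotype, treatment or time that differs between the libraries. Each group had 1 library of 1 cell line, so no difference between loci has a replicate check. The names inside the TEAD list contain TEF1 and TEF3, older names used for TEAD proteins, and the label gives no single family member for the antibody.

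TEAD proteins are the DNA-binding partners of the co-activators YAP and TAZ at the end of the Hippo pathway, and H3K27ac marks active promoters and enhancers. SLC2A1 encodes the glucose transporter GLUT1, and HK2 encodes a hexokinase that traps glucose in the cell by phosphorylation. PFKFB3 makes the sugar bisphosphate that activates phosphofructokinase, ENO1 encodes the enolase that forms phosphoenolpyruvate, and LDHA encodes a lactate dehydrogenase subunit that reduces pyruvate to lactate. These genes are known targets of hypoxia-inducible factors, which accumulate in clear cell renal carcinoma when the VHL tumour suppressor is lost.

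A TEAD region lay at the start of each of the 5 genes. The TEAD letters stood in front of the start at ENO1 and in 1 of 2 PFKFB3 promoter windows. RefSeq (GRCh38.p14) gave 8 promoter windows for the 5 genes, from 250 bases before to 50 bases after a start. Since the regions are hg19, these windows were not placed on them. The TEAD motif GGAATG or its reverse complement CATTCC occurred in 2 of the 8 windows, the ENO1 window and 1 of 2 PFKFB3 windows, against 14.0% of all 35114 windows. With 8 windows, this count does not set the 5 genes apart from all windows. The core of the hypoxia response element, ACGTG or CACGT, occurred in 4 of the 8 windows and in 21.4% of all windows. The 4 were the 2 HK2 windows, 1 of 2 PFKFB3 windows and 1 of 2 LDHA windows. This count is also too small to set the 5 genes apart. The AP-1 motif TGANTCA was in none of the 8 windows (7.71% of all) and the short NF-κB core GGGAN was in all 8 and in 96.0% of all windows. Of 41 other symbols of glucose transport, glycolysis and gluconeogenesis, 33 matched, and GGAATG was in 9 of their 61 windows (14.8%) and ACGTG in 20 (32.8%). Both strands were searched. A match is a stretch of letters, not a binding site. Shown here are the 250 bases before the start for the windows with the TEAD letters and for 1 of 2 LDHA windows, which held 3 ACGTG places, the most of any single window. The other LDHA window held none, and each of the 2 HK2 windows held 2. Capitals mark GGAATG and ACGTG or CACGT, and CACGTG contains both and counts as 1 place.
ENO1 (GRCh38.p14 chr1:8878687-8878936, minus strand): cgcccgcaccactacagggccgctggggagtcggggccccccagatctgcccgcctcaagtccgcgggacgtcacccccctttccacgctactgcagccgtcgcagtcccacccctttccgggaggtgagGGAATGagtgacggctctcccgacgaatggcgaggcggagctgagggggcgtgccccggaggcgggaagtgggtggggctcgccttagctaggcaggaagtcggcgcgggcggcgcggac
PFKFB3 (GRCh38.p14 chr10:6202682-6202931, plus strand): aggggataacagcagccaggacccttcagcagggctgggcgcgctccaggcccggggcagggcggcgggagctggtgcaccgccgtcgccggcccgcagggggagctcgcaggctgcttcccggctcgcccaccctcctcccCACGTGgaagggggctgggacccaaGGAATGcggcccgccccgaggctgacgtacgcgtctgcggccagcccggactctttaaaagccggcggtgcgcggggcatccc
LDHA (GRCh38.p14 chr11:18394313-18394562, plus strand): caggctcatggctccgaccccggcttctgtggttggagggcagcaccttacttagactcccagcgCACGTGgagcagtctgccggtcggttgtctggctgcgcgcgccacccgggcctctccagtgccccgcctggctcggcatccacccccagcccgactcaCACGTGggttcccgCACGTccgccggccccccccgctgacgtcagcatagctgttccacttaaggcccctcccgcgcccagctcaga
In the ENO1 window GGAATG began 120 bases before the start. In the PFKFB3 window GGAATG began 83 bases and a CACGTG 108 bases before the start. The LDHA window shown had no GGAATG, and its 3 ACGTG places began 185, 87 and 73 bases before the start.

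The values below are the authors' fold enrichment at each summit, with a 95% Poisson interval from the number of reads piled up there. That number was worked back from each peak's fold and −log10 p, and the interval covers counting error only, with the background held fixed. Over the whole lists the median was 24 reads at a summit for TEAD and for H3K27ac alike. At the 5 loci the pileup ran from 13 to 222 reads for TEAD and from 11 to 167 for H3K27ac. Upstream and downstream refer to the direction of transcription. Exons, introns and the markers of the cell type were not placed on the regions here, since the gene table used is of another build.

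**Figure D1:**
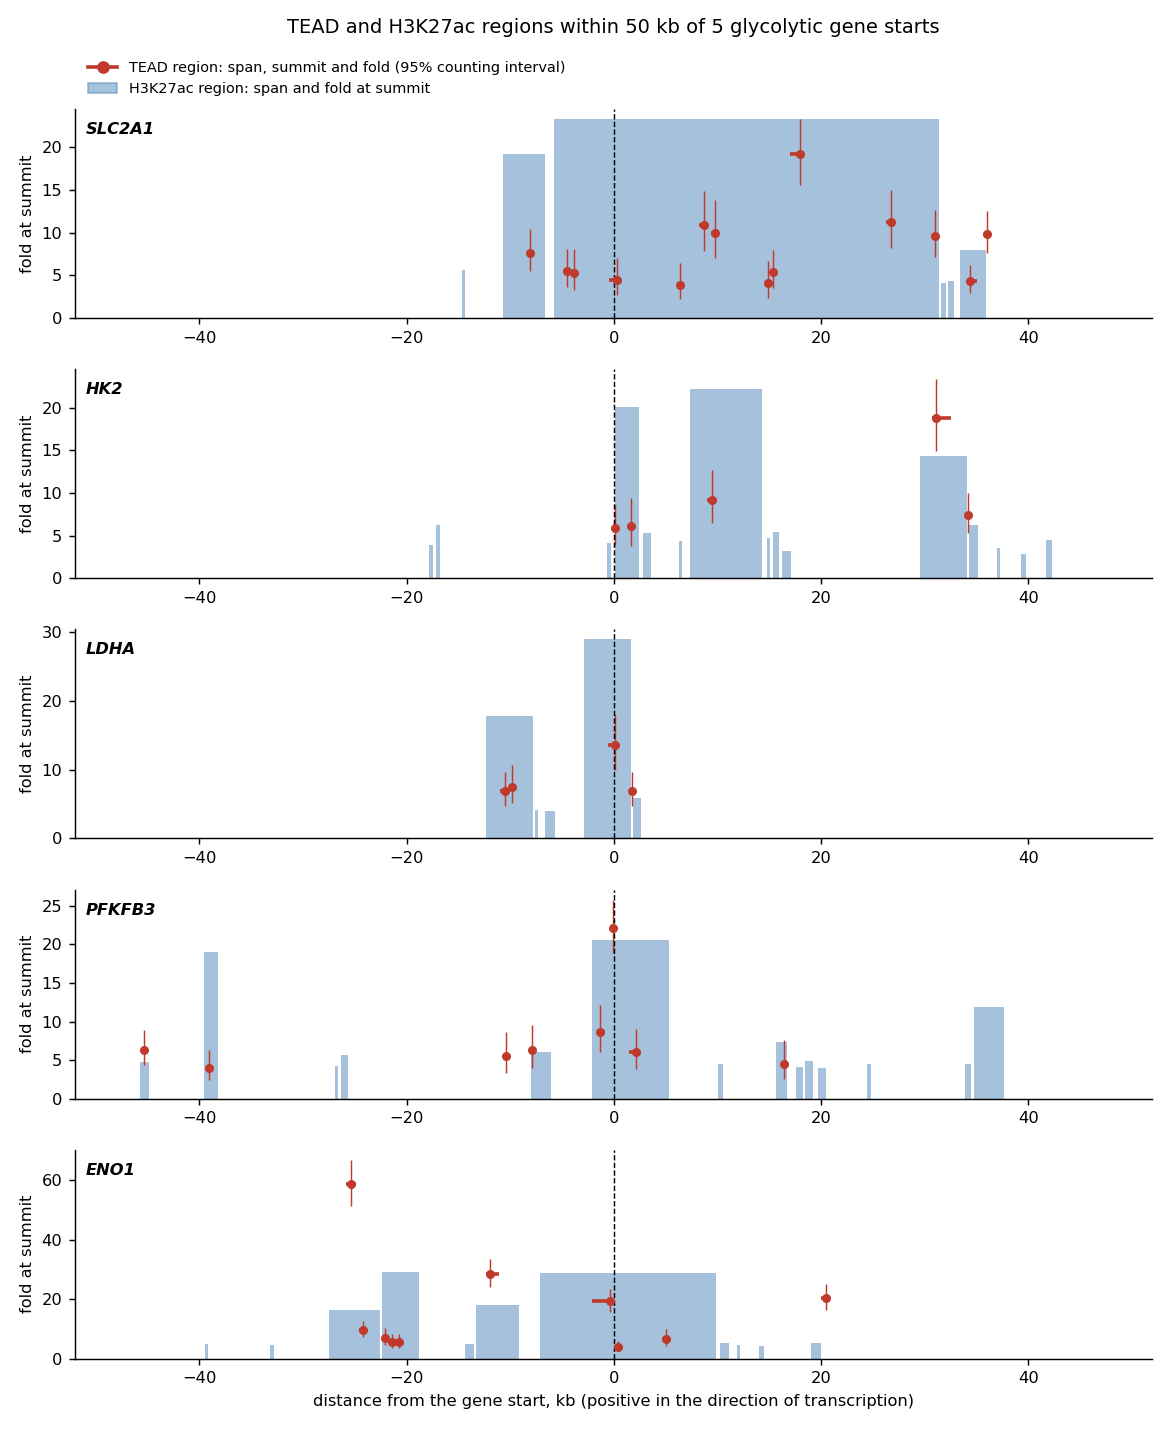
Regions at the 5 loci. The horizontal axis is distance from the gene start in kb, positive in the direction of transcription, and the vertical axis is the authors' fold at the summit. Blue blocks span H3K27ac regions, red lines span TEAD regions, red points are TEAD summits and vertical lines are 95% counting intervals. The SLC2A1 block of 37.2 kb and the ENO1 summit at 58.6-fold stand out.

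At SLC2A1, the transporter gene, TEAD was spread over a very broad acetylated stretch and was weak at the start itself. The locus held 14 TEAD and 6 H3K27ac regions, and H3K27ac covered 45.2 kb of the 100 kb window. An H3K27ac region of 37179 bp on chromosome 1 from 43393425 to 43430603 ranked 2 of 52667 by width. It reached from 5.76 kb upstream to 31.4 kb downstream of the start, with a summit of 23.3-fold (18.8 to 28.5; 92 reads), and overlapped 11 of the 14 TEAD regions. The strongest TEAD region reached 19.2-fold (15.6 to 23.3; 99 reads) with its summit 18.0 kb downstream, followed by 11.2-fold 26.7 kb downstream and 10.9-fold 8.75 kb downstream. Apart from the region at the start, the other 7 in the broad stretch ran from 3.90- to 9.99-fold. At the start, the TEAD region from 43424516 to 43425262 had 4.47-fold (2.67 to 7.09; 16 reads) with its summit 310 bp downstream. Its interval did not overlap that of the strongest region, so the start was not the main TEAD site of the locus. Upstream, an H3K27ac region of 4098 bp at 19.3-fold carried a TEAD region of 7.68-fold with its summit 8.12 kb from the start. Far downstream, an H3K27ac region of 2512 bp at 7.95-fold touched 2 TEAD regions of 9.83- and 4.39-fold, the stronger with its summit 85 bp outside it. The 3 H3K27ac regions without TEAD were 351 to 597 bp wide, at 4.10- to 5.66-fold.

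At HK2, the hexokinase gene, all 5 TEAD regions had their summits downstream of the start, as did 12 of the 15 H3K27ac regions. The start position itself lay in a gap of H3K27ac, between a region of 362 bp at 4.14-fold and 1 of 2286 bp at 20.1-fold (15.7 to 25.3) on chromosome 2 from 75061251 to 75063536. The TEAD region nearest to the start, from 75061030 to 75061474, had 5.91-fold (3.91 to 8.62; 25 reads). Its summit lay 130 bp downstream and 12 bp outside the edge of the acetylated region. A further TEAD region of 6.13-fold had its summit 1.62 kb downstream, inside the same H3K27ac region. The strongest and widest H3K27ac region, 6983 bp at 22.2-fold (17.8 to 27.5), had its summit 9.20 kb downstream and carried a single TEAD region of 9.21-fold (6.52 to 12.6). The strongest TEAD region lay far downstream, with its summit 31.1 kb downstream, at 18.8-fold (14.9 to 23.4; 78 reads). It was 1836 bp wide, rank 63 of 35241 by width, in an H3K27ac region of 4552 bp at 14.4-fold. That H3K27ac region also touched a TEAD region of 7.42-fold whose summit, 34.2 kb downstream, fell between it and the next acetylated region. The 11 H3K27ac regions without TEAD were 299 to 781 bp wide, at 2.87- to 6.28-fold.

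At PFKFB3, the regulator of phosphofructokinase, the strongest TEAD region of the locus sat on the start. The region on chromosome 10 from 6244524 to 6245121 had 22.2-fold (18.9 to 25.8; 161 reads), with its summit 49 bp upstream of the start, and ranked 2700 of 35241 by fold. Its recovered background of 6.31 reads was the highest of the 41 TEAD regions. It lay in an H3K27ac region of 7494 bp at 20.5-fold (16.6 to 25.1), whose own summit was 1475 bp away. The same H3K27ac region held TEAD regions of 8.67-fold 1.33 kb upstream and of 6.04-fold 2.17 kb downstream. The other TEAD regions of the locus, 5 in number, ran from 3.99- to 6.34-fold, the highest of them 45.4 kb upstream. An H3K27ac region of 1311 bp at 19.0-fold, 38.7 kb upstream, carried the weakest of these. Further H3K27ac regions of 4.71-, 6.08- and 7.33-fold carried TEAD regions of 6.34-, 6.32- and 4.55-fold. TEAD without H3K27ac occurred here: a region of 383 bp at 5.55-fold (3.36 to 8.69; 17 reads), 10.4 kb upstream, lay 2393 bp from the nearest H3K27ac region. Conversely, an H3K27ac region of 2940 bp at 11.9-fold, 36.9 kb downstream, had no TEAD region. The other 8 H3K27ac regions without TEAD stayed between 3.92- and 5.61-fold.

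At ENO1, the enolase gene, the strongest TEAD regions lay upstream, away from the start. The region on chromosome 1 from 8963655 to 8964619, with its summit 25.4 kb upstream, reached 58.6-fold (51.2 to 66.8; 222 reads), rank 188 of 35241 and its interval lay above those of the other 40 TEAD regions of the 5 loci. It lay in an H3K27ac region of 4853 bp at 16.2-fold. A second upstream region, 11.9 kb from the start, reached 28.6-fold (24.2 to 33.6; 148 reads) in an H3K27ac region of 4105 bp at 18.1-fold. The region next in strength, 20.5 kb downstream, reached 20.4-fold (16.4 to 25.2) with its summit 511 bp outside an H3K27ac region of 950 bp at 5.30-fold. The start carried a pair of TEAD regions of unequal strength. The upstream region, with its summit 355 bp from the start, had 19.4-fold (15.8 to 23.5; 100 reads) and was 2105 bp wide, rank 32 of 35241 by width. The downstream region, 421 bp from the start, had 3.89-fold (2.5 to 5.81; 22 reads). Both lay in an H3K27ac region of 16995 bp, rank 31 of 52667 by width, at 28.7-fold (24.5 to 33.4). The summit of that H3K27ac region was 292 bp downstream of the start, between the TEAD summits. The H3K27ac region of highest fold, 29.0 (23.9 to 34.9) and 3570 bp wide, had its summit 21.0 kb upstream and held 3 TEAD regions of 5.52-, 5.52- and 6.95-fold. The last 2 TEAD regions had 9.60-fold, 24.2 kb upstream, and 6.70-fold, 5.06 kb downstream. The 6 H3K27ac regions without TEAD were 309 to 936 bp wide, at 4.22- to 5.29-fold.

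At LDHA, the lactate dehydrogenase gene, the fewest regions of the 5 loci were found. All summits lay from 10.5 kb upstream to 2.10 kb downstream of the start. The locus held 4 TEAD and 5 H3K27ac regions, with TEAD summits from 10.5 kb upstream to 1.77 kb downstream, and H3K27ac covered 11.1 kb. The TEAD region on the start, on chromosome 11 from 18415389 to 18416363, had 13.6-fold (9.90 to 18.2; 43 reads) with its summit 98 bp downstream. It lay in an H3K27ac region of 4564 bp at 28.9-fold (23.6 to 35.1), rank 538 of 52667 by fold, with the summits 315 bp apart. A TEAD region of 6.88-fold, 1.77 kb downstream, had its summit in the gap between this H3K27ac region and the next and touched both. Upstream, an H3K27ac region of 4545 bp at 17.8-fold held TEAD regions of 6.88- and 7.46-fold. Their summits lay 317 and 410 bp on either side of its H3K27ac summit. The 2 H3K27ac regions without TEAD were 312 and 936 bp wide, at 4.19- and 3.92-fold.

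**Figure D2:**
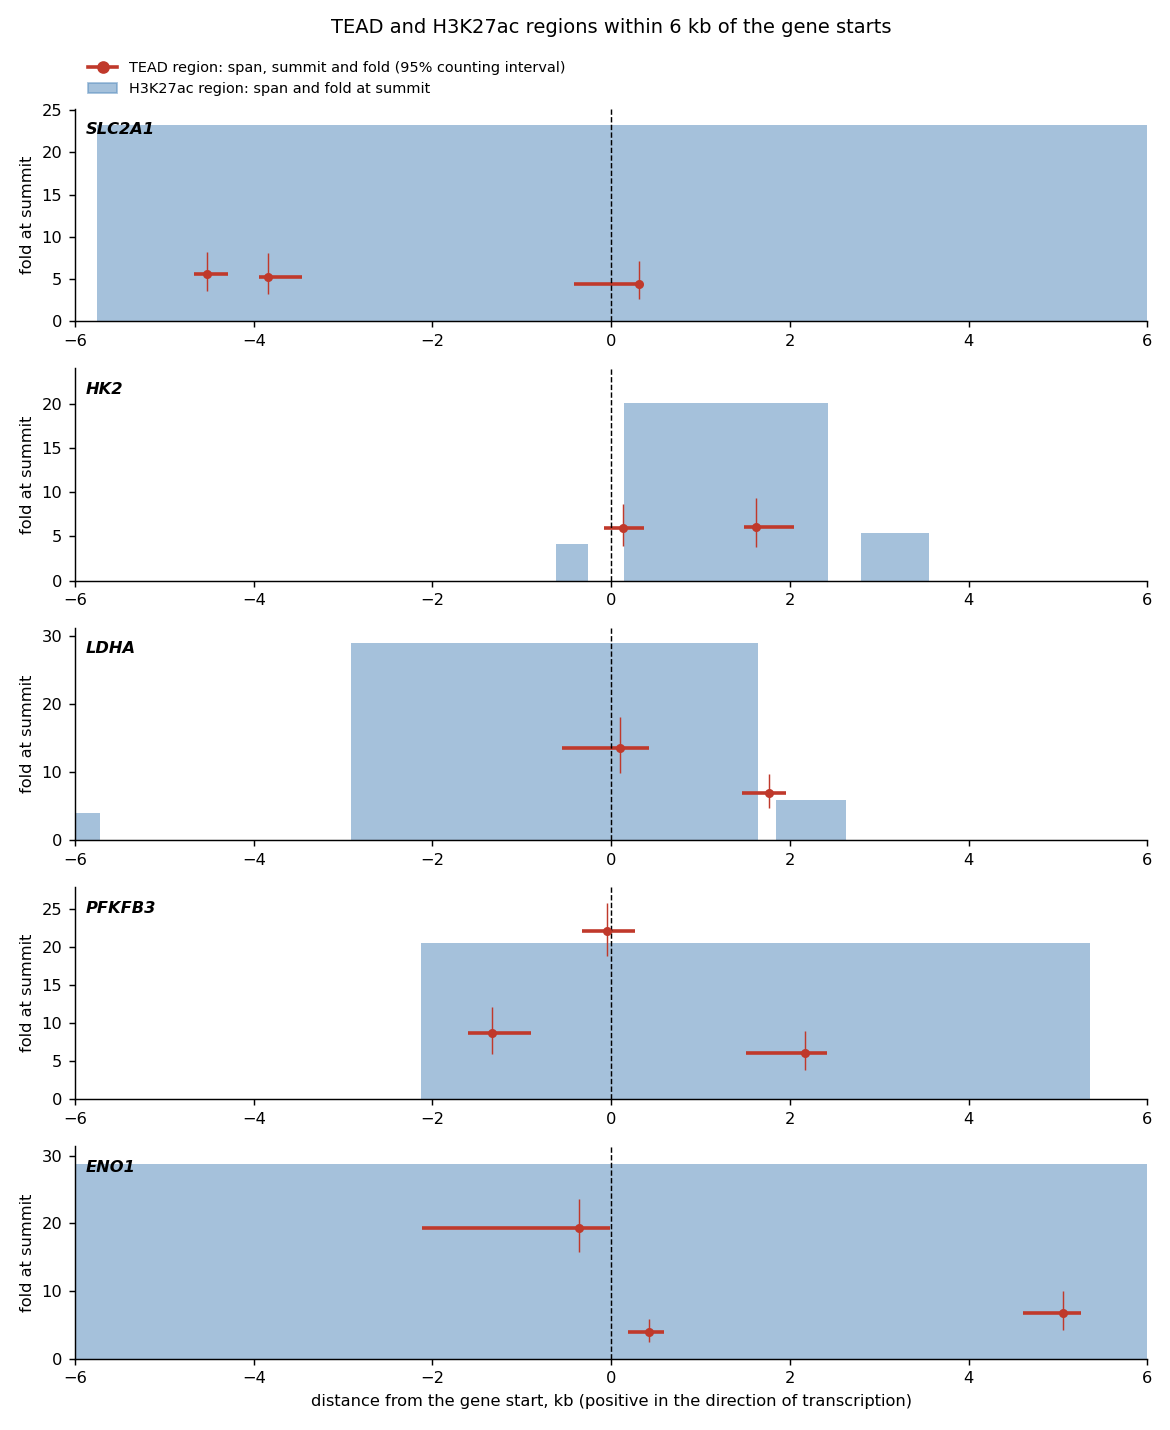
The same regions within 6 kb of each start, on the same axes as the map of the loci. Each start has a TEAD summit within 355 bp, and the start of HK2 lies in a gap of H3K27ac.

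Across the 5 starts the nearest TEAD summit lay 49 bp (PFKFB3), 98 bp (LDHA), 130 bp (HK2), 310 bp (SLC2A1) and 355 bp (ENO1) away. TEAD summits within 500 bp were thus present at 5 of 5 starts. Around the summits of all H3K27ac regions this held for 32.4%, and for 47.1% where the H3K27ac region was at least 2000 bp wide. H3K27ac summits are not gene starts, so these shares describe the list rather than other promoters. The fold of the nearest region was highest at PFKFB3 (22.2) and ENO1 (19.4), whose intervals overlapped. LDHA came next with 13.6, below PFKFB3 with no overlap of intervals but overlapping ENO1. HK2 (5.91) and SLC2A1 (4.47) were lowest, overlapped each other and stayed below the other 3 intervals.

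The TEAD regions of the loci were, at the median, of about the strength of the list. The median fold of the 41 TEAD regions was 6.88, against 7.14 over the whole list, and 19 of the 41 lay above the list median, as did 49.9% of the list. A fold of at least 10 was reached by 10 of the 41, against 30.4% of the list, and a fold of at least 20 by 4, against 9.26%. Of these 4, 3 were at ENO1 and 1 at PFKFB3. Their median width was 598 bp, against 463 bp for the list, and their median recovered background was 3.02 reads, against 2.45, which lowers the fold for the same number of reads. The part of background in the fold was not tested. The median pileup was 30 reads at the loci and 24 in the list.

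**Figure D3:**
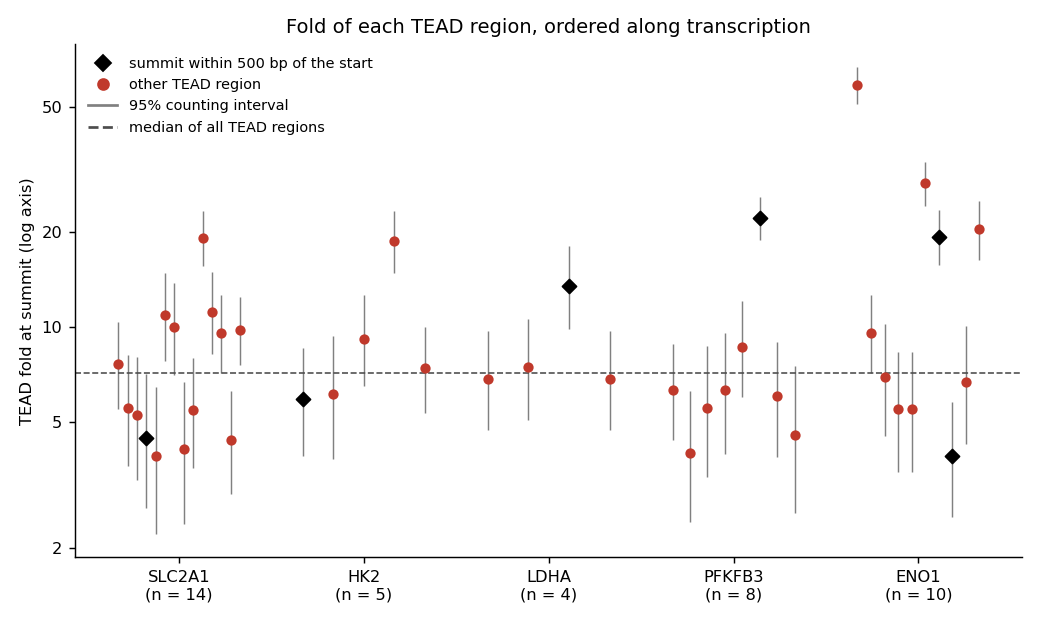
Fold of each TEAD region on a log axis, by locus, in the order of transcription. Diamonds are regions with a summit within 500 bp of the start, circles are the others, bars are 95% counting intervals and the dashed line is the list median of 7.14. The regions nearest to the start lie above the line at PFKFB3, ENO1 and LDHA and below it at HK2 and SLC2A1. The second ENO1 diamond, downstream of the start at 3.89-fold, lies below the line.

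The number of TEAD regions ranked SLC2A1 (14), ENO1 (10), PFKFB3 (8), HK2 (5) and LDHA (4). The 95% Poisson intervals, 7.65 to 23.5 for SLC2A1 and 1.09 to 10.2 for LDHA, overlapped throughout this order. A window of the same size around every H3K27ac summit held a median of 3 TEAD regions (interquartile range 2 to 5). At least as many as at SLC2A1 were found in 1.07% of these windows, as at ENO1 in 5.14%, as at PFKFB3 in 11.6%, as at HK2 in 34.1% and as at LDHA in 46.8%. Around H3K27ac regions of at least 2000 bp the shares were 1.75% for SLC2A1, 7.75% for ENO1, 16.4% for PFKFB3, 44.2% for HK2 and 58.0% for LDHA. By this count LDHA was near the middle of the windows, and HK2 with 5 lay at the upper quartile of all windows. H3K27ac regions ran in another order, 15 at HK2, 14 at PFKFB3, 11 at ENO1, 6 at SLC2A1 and 5 at LDHA, against a median of 6 in the same windows. The length covered by H3K27ac did not follow this order. It was 45.2 kb at SLC2A1, 33.9 kb at ENO1, 20.2 kb at PFKFB3, 19.9 kb at HK2 and 11.1 kb at LDHA. Per 10 kb of H3K27ac, SLC2A1 had 2.88 TEAD summits (95% Poisson interval 1.53 to 4.92), HK2 1.51 (0.311 to 4.41), PFKFB3 3.47 (1.39 to 7.14), ENO1 2.65 (1.21 to 5.04) and LDHA 2.69 (0.555 to 7.87). The whole list had 2.57, which lay inside all 5 intervals, and these intervals are wide.

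**Figure D4:**
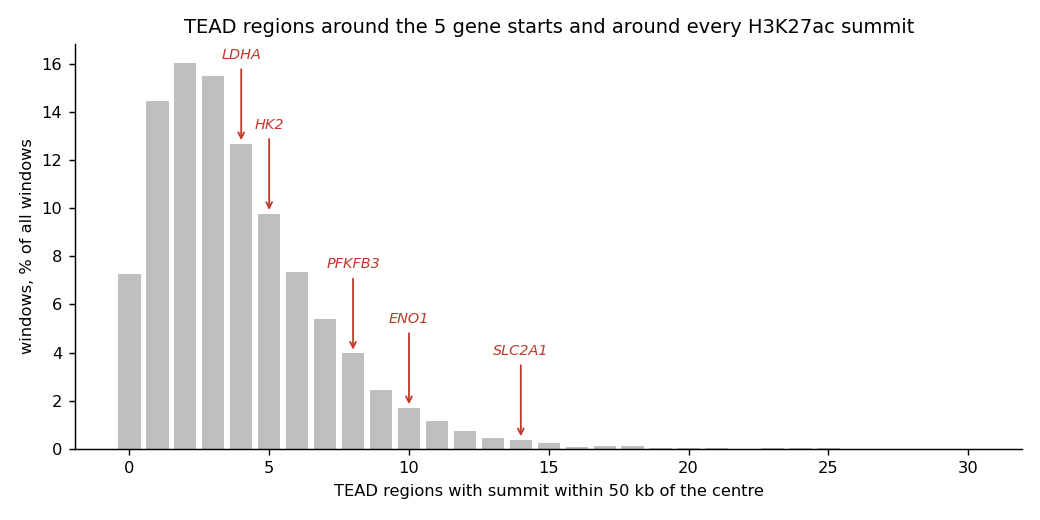
TEAD regions per window of 50 kb on either side of a centre. Red arrows mark the 5 gene starts, and grey bars give the share of the 52667 windows centred on H3K27ac summits. SLC2A1 with 14 lies in the far right of the distribution, LDHA with 4 near its middle.

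Nearly every TEAD region of these loci was acetylated. Among the 41, 40 overlapped H3K27ac by 1 bp or more (97.6%, 95% Wilson interval 87.4 to 99.6%), against 68.4% of the whole list. Among TEAD regions within 50 kb of a wide H3K27ac region, of at least 2000 bp, the share was 82.1%. The summit itself lay inside H3K27ac for 35 of the 41 (85.4%), against 55.3% of the list. Regions of a locus share their stretch of chromatin and are not independent, so these intervals may be too narrow.

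In the other direction, 20 of the 51 H3K27ac regions carried TEAD (39.2%, 27.03 to 52.9%), close to the 41.7% of the whole list. Presence of TEAD went with width. TEAD was present in 13 of the 14 H3K27ac regions of at least 2000 bp, against 76.1% of such regions in the list. Among narrower regions it was present in 7 of 37, against 31.9% in the list. Those with TEAD had a median width of 3834 bp and a median fold of 18.0, and those without a median width of 496 bp and a median fold of 4.49. Width alone gives a region more room for TEAD, and its part in this was not tested. At least 2 TEAD regions were carried by 10 of the 51 H3K27ac regions, against 5.87% of the list. All 10 were at least 2000 bp wide, from 2286 to 37179 bp, while the list share covers all widths. A list share for wide regions alone was not computed. Only 1 TEAD summit lay inside the regions of 2512 bp at SLC2A1, 2286 and 4552 bp at HK2 and 4564 bp at LDHA.

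**Figure D5:**
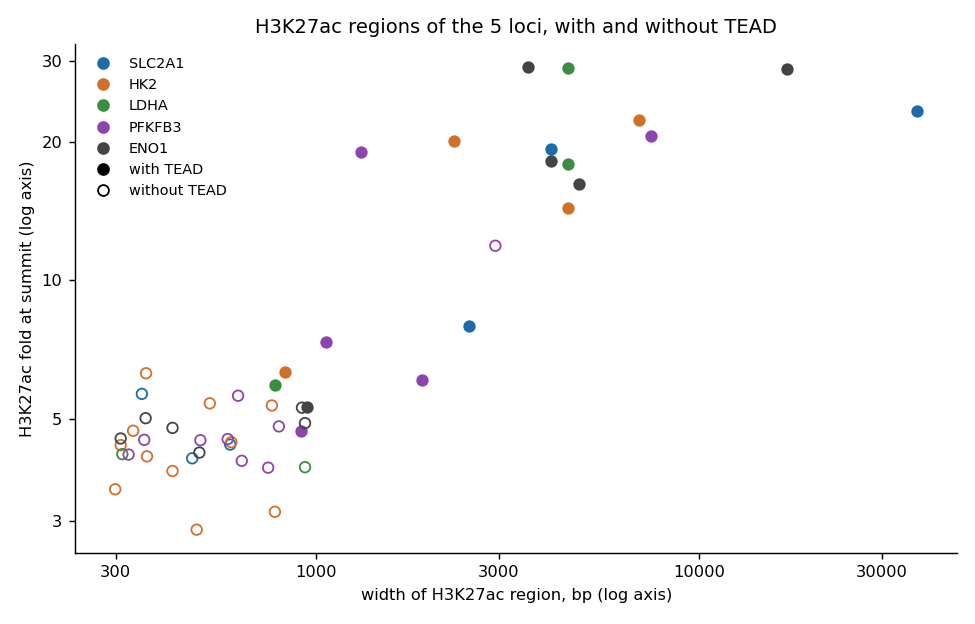
Width and fold of the 51 H3K27ac regions on log axes, coloured by locus. Filled points carry TEAD and open points do not. Nearly all wide, strong regions are filled, and the open point at 2940 bp and 11.9-fold belongs to PFKFB3.

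The distance of TEAD summits from the H3K27ac summit depended on the broad SLC2A1 region. In it, 11 TEAD summits lay 973 to 29764 bp from the H3K27ac summit. The other 24 TEAD summits within an acetylated region lay, at the median, 426 bp (interquartile range 301 to 732 bp) from its summit, against 400 bp (252 to 692 bp) for the list. With the broad region included, the median over all 35 was 727 bp. Within 150 bp of the H3K27ac summit lay 2 of the 24, 1 at ENO1 and 1 at PFKFB3, against 11.2% of the list, and 7 of the 24 lay 300 to 450 bp away, against 23.5%. These numbers are too small to set the members apart from the list.

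All 5 starts fell in large acetylated domains. H3K27ac regions joined over gaps of up to 12500 bp formed 22587 domains, of which 863 ranked as large by fold times width. The domain at SLC2A1 spanned 50.7 kb and ranked 29, and that at ENO1 spanned 59.5 kb and ranked 55. PFKFB3 (45.7 kb, rank 647), LDHA (15.0 kb, rank 658) and HK2 (17.7 kb, rank 711) were nearer to the limit, and with gaps of up to 2.5 kb HK2 and LDHA were no longer large. Of all H3K27ac regions 16.0% lay in large domains, and of those at least 2000 bp wide 25.9%. No TEAD region lay close to the limit of 50 kb. The nearest beyond it lay 58.1 kb from the PFKFB3 start at 4.90-fold, the outermost inside 45.4 kb at the same gene, and at the other genes the first one outside was 71.0 to 145 kb away.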

How the data were processed

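The series holds 3 libraries, TEAD ChIP, H3K27ac ChIP and input, of which 2 peak lists were used. The submitters' processing notes list hg19 together with MACS2, fastp and Bowtie2 2.4.5. Roles, thresholds and control library are not stated there. For each peak the authors deposited a fold enrichment at the summit, −log10 p and −log10 q values, the summit position and a whole-number score, which was not used. Peaks on chromosome Y (123 for TEAD, 183 for H3K27ac) were left out. The rule took summits (start plus offset) within 50 kb of the start. The summit pileup k and background b were worked back by searching for the integer k with fold = (k + 1)/(b + 1) whose Poisson tail matches p; all regions met this within 0.002 of the −log10 p. The recovery was tested on simulated data. Absolute depth is unknown.

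A TEAD region counted as acetylated with at least 1 bp of overlap. Domains joined H3K27ac regions over gaps of up to 12500 bp and were called large beyond the tangent point of the scaled curve of fold times width. No test was run across libraries or members, since each group had 1 library. Text names, per locus, the H3K27ac region at the start, the strongest and the widest, the TEAD regions nearest to the start, the 3 strongest, and H3K27ac regions with 2 or more TEAD regions. Members, lists and motifs were chosen with earlier results of these data known. Alternatives were other windows (25 and 100 kb), thresholds, overlap rules, strength measures and joining gaps. Python 3.11.15, NumPy 2.4.6, pandas 2.3.3 and SciPy 1.17.1 were used. Reads carry no molecular identifiers, and the 95% intervals cover counting error only.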

Additional observations from a re-analysis of the deposited data

How the results depend on the processing

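Of 85 alternatives for the 5 loci, 67 stayed within the set limits (1.5 times for counts, the 95% interval for shares and densities, the same region for the strongest TEAD region) and 18 moved. With a window of 25 kb, HK2 had 3 TEAD regions, and H3K27ac regions numbered 3 at SLC2A1 and 8 at PFKFB3. With 100 kb, TEAD regions numbered 8 at HK2 and 17 at PFKFB3, above the count at SLC2A1, and H3K27ac regions 27 at PFKFB3 and 21 at ENO1. At a fold of at least 5, H3K27ac regions numbered 7 at HK2, 3 at LDHA, 6 at PFKFB3 and 7 at ENO1; at a −log10 q of at least 5, LDHA had 3. Requiring the TEAD summit inside H3K27ac gave 85.4% acetylated TEAD regions. With joining gaps of 5 kb the domain ranks were 12 at SLC2A1 and 24 at ENO1, and with 2.5 kb they were 8 at SLC2A1, 4975 at HK2 and 1049 at LDHA, where HK2 and LDHA left the large domains. These settings count fewer or more regions by construction. The strongest TEAD region of each locus was the same by fold, pileup and −log10 q. No paired analysis was possible because each group had 1 library. Counts of 13 to 30 reads at many summits limit the order of the weaker regions.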
